A study of Zea mays with 2 samples.

Results

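The regions described here are 402 maize genomic regions in which the count ratio deposited by the authors was low but not 0. They were selected on that ratio: a value above 0 and below 0.5, on chromosomes 1 to 10. They are 402 of the 3126 listed regions, and 402 of the 3120 on numbered chromosomes (12.9%, exact Clopper-Pearson 95% interval 11.7% to 14.1%). They are set against the 2240 regions with ratios of 0.5 to 1.5, called middle-ratio regions below. Of the remaining numbered-chromosome regions, 132 were listed at 0 and 346 were above 1.5, and 6 more regions carried the chromosome label 0 and were not used.

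An MNase and an input library, 1 of each, were made from flowers of B73, the inbred line of the maize reference genome. For the MNase library, nuclei were briefly sonicated (5 s), digested with micrococcal nuclease at 0.02 U/µl for 10 min, and DNA of roughly 150 bp was recovered from a gel. The input library came from sonicated chromatin of 200 to 500 bp. Flowers contain many cell types besides the cells in meiosis, and no plant, stage or replicate is distinguished in the labels. The ratio belongs to a region, not to a library, and is the authors' own value. The table has no header, so whether MNase or input reads stand on top is not stated. A low ratio can therefore not be read as high or low nucleosome occupancy. Whether a low value came from few reads on top or many reads below was not separated here, because the columns of whole numbers beside the ratio have no names, could not be matched to a library and were not used. Depth per library and per region was not computed, and no error is given for a single ratio.

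As background, a nucleosome is DNA wrapped around a core of histone proteins. Micrococcal nuclease cuts the linker DNA between nucleosomes faster than the wrapped DNA, so sequenced fragments mark where nucleosomes sat, and sheared input marks how well each place can be recovered and mapped at all. Meiotic recombination starts from programmed double-strand breaks made by the SPO11 complex, and in plants, as in yeast, breaks are often found in chromatin with few nucleosomes. The series title places these libraries in a study of such break hotspots.

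The ratios of the low-ratio regions were crowded toward the upper limit of their class. Their median was 0.385, with quartiles of 0.278 and 0.441 and a range of 0.0353 to 0.4996. Middle-ratio regions had a median of 0.882, with quartiles of 0.696 and 1.10. In steps of 0.1 the low-ratio class held 11, 40, 71, 105 and 175 regions, and the next step, from 0.5 to 0.6, held 282. The counts grew from step to step through the limit of 0.5, with no gap there. Since the ratio chose these regions, none of these values is a test.

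**Figure D1:**
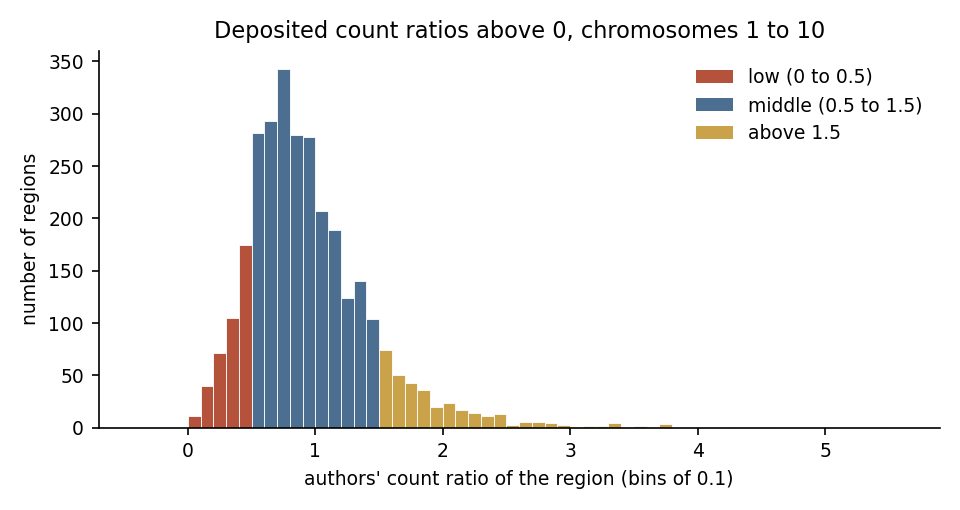
Number of regions (y) in bins of 0.1 of the authors' count ratio (x), for ratios above 0 on chromosomes 1 to 10, coloured by class. The low-ratio bins climb from 11 to 175 regions and run into the middle-ratio bins, which begin at 282, without a break.

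The members nearest the limit differed little from the regions just past it. The highest value inside, 0.4996, was held by chr1:258853524-258854455 (932 bp), chr2:72997181-72998349 (1169 bp) and chr4:32302992-32303843 (852 bp). Just outside lay chr7:122976296-122977279 (984 bp) and chr9:20565025-20566419 (1395 bp), both at 0.502, and chr1:6580273-6581121 (849 bp) at 0.504.

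Many regions shared a ratio, in the low class as in the middle class. The 402 low-ratio regions had 119 distinct ratios and the 2240 middle-ratio regions had 612. Of the low-ratio regions, 346 shared their ratio with at least 1 other member. The most frequent values were 0.353, held by 37 regions, 0.176, held by 29, and 0.441, held by 26. Together these 3 values covered 92 regions. The ranking inside the class thus holds many ties. No read counts were used here, so how many reads stand behind a shared or a lowest ratio is not known.

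The lowest nonzero ratios were spread over several chromosomes. The lowest value was shared by a pair of regions at 0.0353, chr1:208096869-208097757 (889 bp) and chr6:88294653-88295991 (1339 bp). The next were chr6:15828528-15829344 (817 bp) at 0.0481 and chr5:73403273-73404429 (1157 bp) at 0.0661. A further 7 tied at 0.0882. They were chr1:21945678-21946531 (854 bp), chr2:81852248-81853213 (966 bp), chr2:228801140-228802301 (1162 bp), chr3:94138350-94139463 (1114 bp), chr8:71973447-71974352 (906 bp), chr8:85733977-85734781 (805 bp) and chr10:28026914-28027845 (932 bp). These 11 regions, all of the members below 0.1, came from 7 chromosomes and had a median length of 932 bp. Of the 11, 4 lay in the outer 20% of a chromosome at either end. That part held 41.8% of all low-ratio and 39.2% of middle-ratio regions. Each of the 11 was at least 50.7 kb from the nearest listed region of any ratio. In the order of listed regions, 6 of the 11 stood beside another low-ratio region. For chr1:21945678-21946531 this was the nearest listed region, 50.7 kb away with a ratio of 0.176. The low-ratio neighbour of chr6:15828528-15829344 was likewise the nearest, 94.5 kb away with a ratio of 0.497. Of all 402 members, 293 had no member beside them. Among all neighbours of members, 14.7% had a low ratio, beside 12.9% of all regions. Whether the 11 differ from the other members in this was not tested, since the same ratio picked them and their neighbours.

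Low-ratio regions were shorter than middle-ratio regions. Their median length was 1004 bp (quartiles 880 and 1247.5 bp), against 1137 bp (924 and 1497 bp) in middle-ratio regions. The classes differed at both ends. Longer than 1500 bp were 10.9% of low-ratio regions (44 of 402, exact 95% interval 8.07% to 14.4%). The share in middle-ratio regions was 24.8% (555 of 2240, 23.0% to 26.6%). At the short end, 29.9% of low-ratio regions (25.4% to 34.6%) were 900 bp or less, against 21.1% of middle-ratio regions (19.4% to 22.9%). These intervals cover counting error only, and regions of 1 genome are not independent replicates. The other classes outside the middle band differed from it in the same direction. Of regions at 0, 36.4% were 900 bp or less and 15.9% were longer than 1500 bp. Of regions above 1.5, the shares were 26.0% and 19.4%. Being shorter than the middle class was thus not particular to low-ratio regions.

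**Figure D2:**
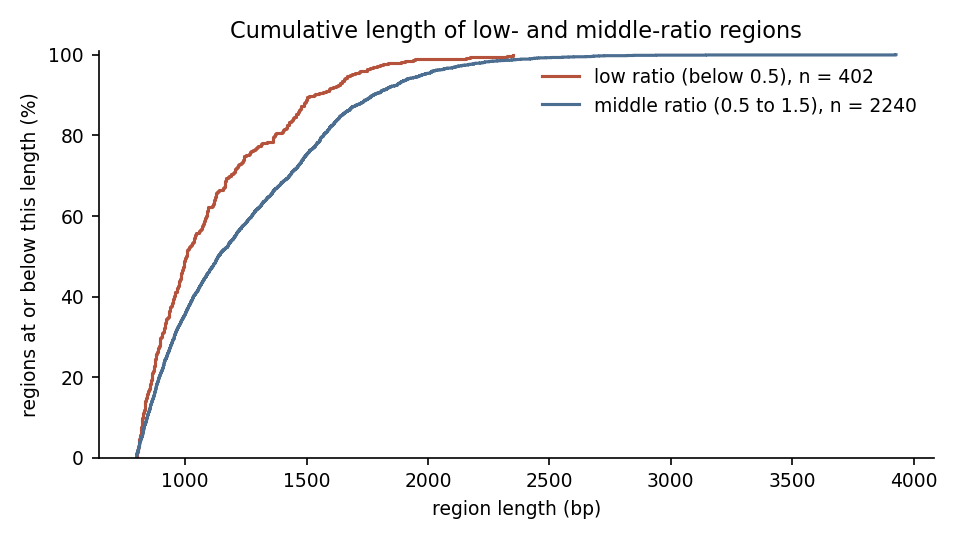
Cumulative share of regions (y, in %) at or below each length (x, in bp) for the 402 low-ratio and the 2240 middle-ratio regions. The low-ratio curve lies to the left, with medians of 1004 bp and 1137 bp, and ends at 2350 bp, against 3928 bp for middle-ratio regions.

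The shortest members were 800 bp long, chr7:104854828-104855627 with a ratio of 0.323 and chr10:110298275-110299074 with 0.294, followed by chr3:31705826-31706626 with 801 bp and 0.366. A length of 800 bp is also the shortest in the whole table, so the lists of both classes end at the same lower limit. The longest members were chr2:197711835-197714184 with 2350 bp and a ratio of 0.353, chr8:170780403-170782727 with 2325 bp and 0.220, and chr5:217708588-217710759 with 2172 bp and 0.397. None of these 3 long regions was among the 11 members below 0.1.

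With the chromosome as the unit, the shorter length of low-ratio regions passed the test. Median lengths per chromosome averaged 1027 ± 79.4 bp for low-ratio and 1143 ± 26.2 bp for middle-ratio regions (SD, n = 10 chromosomes). The difference, low minus middle, averaged -115.9 ± 91.7 bp (exact permutation test that flips signs by chromosome, two-sided p = 0.00586, adjusted p = 0.0352 over 6 tests). Low-ratio regions were the shorter ones on 9 of 10 chromosomes. The differences ran from -231 bp on chromosome 4 (933.5 against 1164.5 bp) and chromosome 9 (955 against 1186 bp) to 30.5 bp on chromosome 5 (1159 against 1128.5 bp). With means in place of medians the difference was -138.7 ± 78.0 bp and negative on 10 of 10 chromosomes. These p-values describe the spread between chromosomes in a single pair of libraries, not between plants. The test cannot separate a length difference of the class from a possibly wider scatter of ratios in shorter regions. Wider scatter would also place more short regions outside the middle band. This was not tested, because read counts were not used. A relation of ratio and length in these data was already known when the test was chosen. The p-values are therefore not independent support, and the adjustment does not correct for this.

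**Figure D3:**
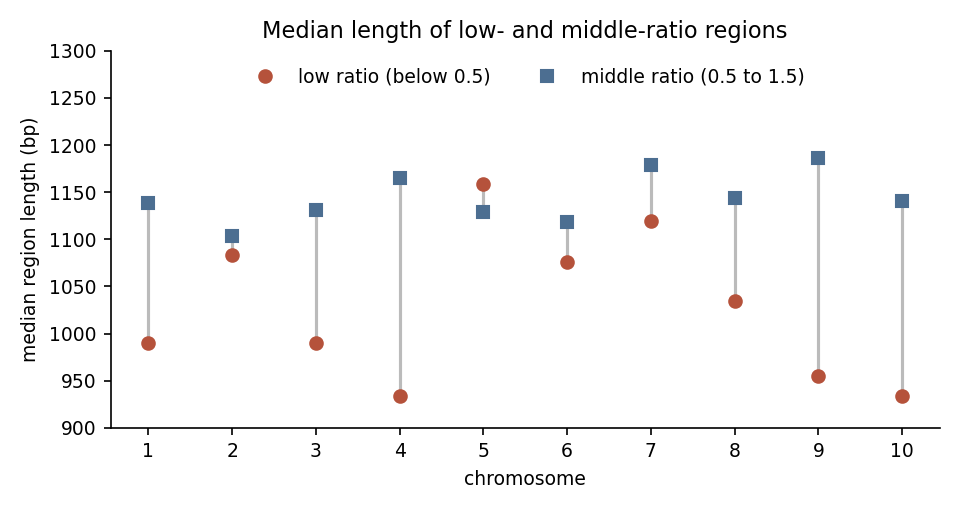
Median region length in bp (y, an axis that does not start at 0) on each chromosome (x), with circles for low-ratio and squares for middle-ratio regions, joined by a line. The circle is below the square on 9 of 10 chromosomes, and above it on chromosome 5.

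The share of regions with a low ratio declined with length. Among regions of 800 to 900 bp, 16.4% (120 of 731, exact 95% interval 13.8% to 19.3%) had a low ratio, a little above the 12.9% over all lengths. It was 16.0% and 14.5% in the next classes, which together reach 1200 bp, 11.6% in the class up to 1500 bp and 7.04% in the class up to 2000 bp. Above 2000 bp it was 3.36% (4 of 119, 0.923% to 8.38%). The share listed at 0 was 6.57% (4.88% to 8.61%) among the shortest and 1.68% (0.204% to 5.94%, 2 of 119) among the longest regions, with overlapping intervals and no steady order in between. Ratios above 1.5 made up 12.3% (10.0% to 14.9%) of the shortest class and 8.40% (4.10% to 14.9%) of the longest, and these intervals overlap too. Overlapping intervals do not show that either share stayed level with length. Middle ratios filled what the others left, with 64.7% of the shortest and 86.6% of the longest class. Whether ratios scatter more in shorter regions was not tested.

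**Figure D4:**
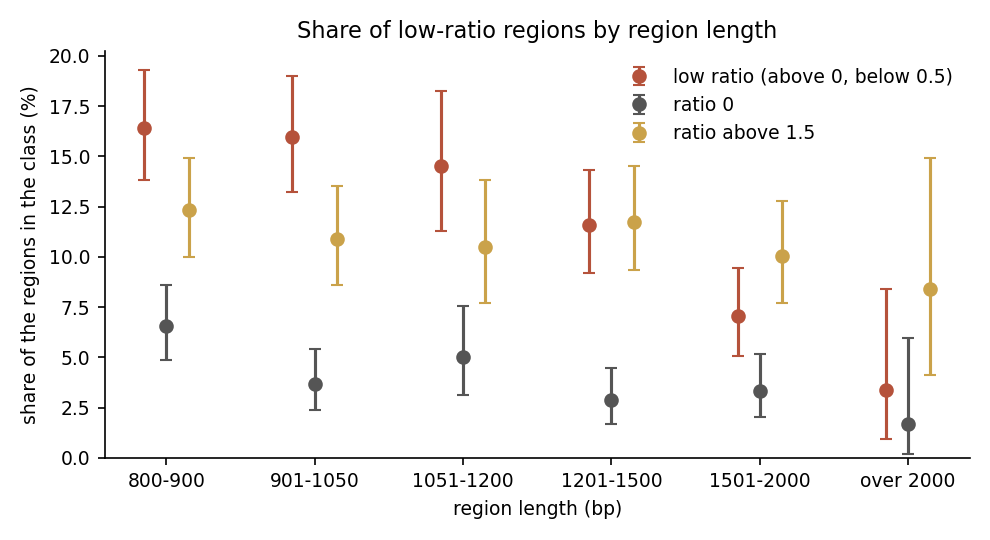
Share of regions (y, in %) with a low ratio, a ratio of 0 or a ratio above 1.5 in 6 classes of region length (x, in bp), with exact 95% intervals for counting error. Low-ratio shares descend from 16.4% to 3.36%, while for ratios of 0 and above 1.5 the intervals of the shortest and the longest class overlap. Overlap does not show that those shares stayed level.

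In length the low-ratio class stood closer to the regions at 0 than to the middle class. Regions at 0 had a median of 998.5 bp, and the difference in chromosome medians, low minus 0, was 6.25 ± 124 bp (SD, n = 10 chromosomes; p = 0.877 and adjusted p = 0.877 by the exact permutation test over chromosomes). Single chromosomes ran from -208 bp to 158.5 bp, so the test does not show that the lengths were alike. Regions above 1.5 had a median of 1075.5 bp. The difference in chromosome medians, low minus above 1.5, was -82.5 ± 125 bp, negative on 7 of 10 chromosomes, and it missed the threshold of 0.05 (p = 0.0605 and adjusted p = 0.182 by the same exact permutation test). Both of these comparisons were chosen with the data in view. A shorter length than in regions with high ratios was thus not shown for low-ratio regions.

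Inside the class, length and ratio were nearly unrelated. Spearman's rho over the 402 regions was 0.02, and within chromosomes it ran from -0.29 on chromosome 7 (27 regions) to 0.21 on chromosome 6 (39 regions), positive on 5 of 10. Median ratios of the length classes up to 2000 bp lay between 0.359 and 0.402. The median length was 932 bp for ratios below 0.1, 1004 bp for 0.1 to 0.2, 997 bp for 0.2 to 0.3, 999 bp for 0.3 to 0.4 and 1029 bp for 0.4 to 0.5. It was 1074 bp from 0.5 to 0.6 and 1148 bp from 0.6 to 0.7, just outside the class. The ratio takes part in choosing these groups, so the relation is given without a test. The class is also cut to a narrow span of ratios with many ties. Its rho therefore does not speak for the relation over all ratios.

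Every numbered chromosome carried low-ratio regions. The share was highest on chromosome 6, with 16.0% (39 of 244, exact 95% interval 11.6% to 21.2%), and lowest on chromosome 9, with 9.47% (23 of 243, 6.09% to 13.9%). Chromosome 4 had the largest number, 60, in 404 regions. All 10 intervals include the 12.9% of the whole. Median ratios of the members lay between 0.353, on chromosomes 3 and 8, and 0.411, on chromosomes 5 and 9.

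Low-ratio regions were found from the chromosome ends to the middle. Positions are given as the distance to the nearer end in percent of the span up to the last listed region. In 5 classes of 10% from the end inward, 13.7%, 13.8%, 13.6%, 12.4% and 10.8% of the listed regions had a low ratio. The innermost share, 67 of 618, had an exact 95% interval of 8.50% to 13.6%, and the outermost, 83 of 605, had 11.1% to 16.7%, so they overlap. Mean relative distance per chromosome was 23.7 ± 2.13% of the span for low-ratio and 25.05 ± 1.01% for middle-ratio regions (SD, n = 10 chromosomes). The difference of -1.34 ± 2.44 percentage points, negative on 6 of 10 chromosomes, missed the threshold (p = 0.121 and adjusted p = 0.242 by the exact permutation test over chromosomes). In the outer 20% at either end lay 41.8% of low-ratio regions (168 of 402) and 39.2% of middle-ratio regions (877 of 2240). Per chromosome this difference averaged 3.02 ± 9.11 percentage points, positive on 6 of 10, and missed it too (p = 0.3125 and adjusted p = 0.377 by the same exact permutation test). Single chromosomes went both ways, from -13.5 points on chromosome 8 to 12.5 points on chromosome 2.

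**Figure D5:**
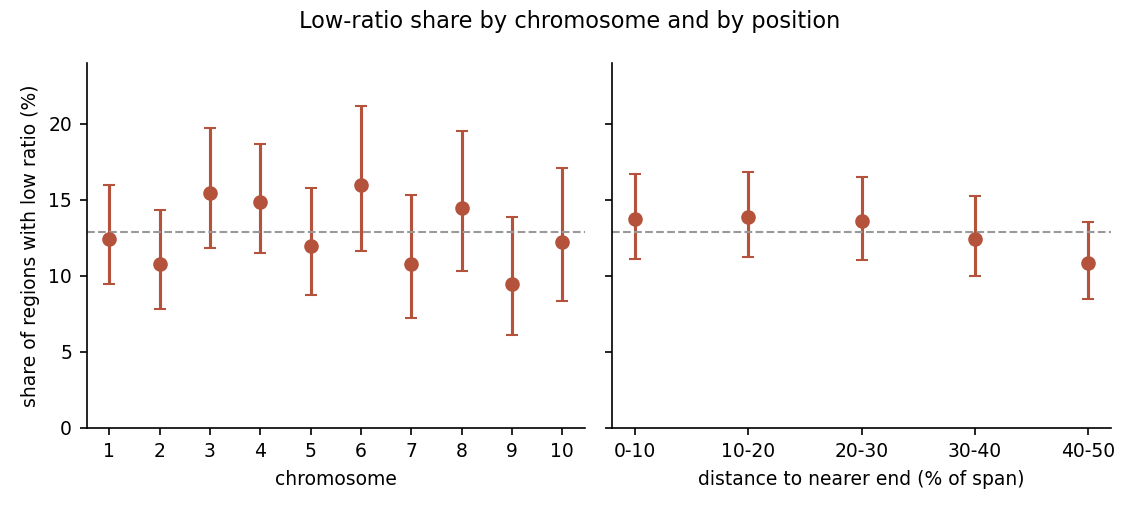
Share of listed regions with a low ratio (y, in %) on each chromosome (left) and by distance to the nearer chromosome end in % of the span (right), with exact 95% intervals for counting error; the dashed line marks 12.9%, the share over all numbered chromosomes. Every interval in both panels spans the line.

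Low-ratio regions were not shown to stand farther from other listed regions than middle-ratio regions did. The median distance to the nearest listed region of any ratio was 225 kb for low-ratio and 204 kb for middle-ratio regions. Per chromosome the medians differed by 31.6 ± 89.1 kb, low minus middle, positive on 6 of 10 chromosomes, which missed the threshold (p = 0.314 and adjusted p = 0.377 by the exact permutation test over chromosomes). Regions with a neighbour closer than 20 kb made up 6.22% of low-ratio regions (25 of 402) and 8.62% of middle-ratio regions (193 of 2240). Of the 261 listed regions with so close a neighbour, 9.58% (exact 95% interval 6.30% to 13.8%) had a low ratio, an interval that includes 12.9%.

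Neighbours of low-ratio regions were mostly regions of other ratios. Of 801 neighbours of low-ratio regions, 118 had a low ratio (14.7%, exact 95% interval 12.3% to 17.4%). For middle-ratio regions it was 564 of 4465 neighbours (12.6%, 11.7% to 13.6%), and these intervals overlap. Neighbours were counted on both sides, so the 118 are 59 adjacent pairs of members, each counted from either side. The intervals treat neighbours as independent and are likely too narrow. The difference per chromosome averaged 1.96 ± 5.96 percentage points, positive on 6 of 10, and is given without a test because the same ratio defines both regions. In the order along the chromosomes, 293 members had no member beside them, 43 runs held 2, 5 runs held 3 and 2 runs held 4. With a low ratio in 12.9% of all numbered-chromosome regions, some members stand side by side in any order. Whether the runs go beyond that was not tested. One run of 4 lay near the end of chromosome 4 and comprised chr4:238534437-238535385 (ratio 0.141), chr4:239144451-239145871 (0.176), chr4:239815503-239816593 (0.176) and chr4:240226005-240226985 (0.366), separated from each other by at least 409 kb. The closest pair of members was 9.44 kb apart, chr9:48271188-48272073 (0.465) and chr9:48281517-48282692 (0.353), and it was the only adjacent pair of members within 10 kb among 59.

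Along the genome, low-ratio regions followed each other at a median distance of 3.30 Mb. Of 210 windows of 10 Mb that held a listed region, 28 held no member, 65 held 1 and 57 held 2. The highest number was 6, in 3 windows: 200 to 210 Mb on chromosome 1 (6 of 13 listed regions), 60 to 70 Mb on chromosome 4 (6 of 25) and 120 to 130 Mb on chromosome 8 (6 of 18). The first of these windows includes 1 of the regions with the lowest ratio, chr1:208096869-208097757. The widest stretch without a member was 29.0 Mb, on chromosome 2 between positions 145260752 and 174290940, and it held 51 listed regions with other ratios. These windows and this stretch were picked for their counts after these had been seen, and no test was made of them.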

How the data were processed

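One table of 3126 regions was used, deposited by the authors without a header. It gives chromosome, start, end, length and a linear count ratio, deposited by the authors with 1 value per region. End minus start equalled the length in all 3126 rows, so starts were taken as 0-based and are printed 1-based. Its 2 columns of whole numbers carry no name, could not be matched to a library and were not used; membership was taken from the ratio alone, and the planned counts and counts per kb were not made. Per the submitters' processing notes, CASAVA 1.8 and BWA took part, in a role not given there. Neither the genome build nor the peak caller is given in the sources used here, and no gene or sequence was assigned.

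The members, classes and tests were chosen with earlier results of these data known, a relation of ratio and length among them. Named regions followed a fixed rule: the 10 lowest ratios, the 3 shortest and 3 longest members, 3 on either side of the limit, a longest run and the closest pair, with ties in genome order; an eleventh region tied at the tenth lowest ratio is named too. Differences per chromosome went into an exact permutation test, two-sided, that flips their signs in all 1024 ways (smallest possible p 0.00195), with Benjamini-Hochberg adjustment over 6 tests, 4 planned and 2 added. The planned test on neighbours' ratios was left out, since the ratio chose the members. The code of the length test was checked on simulated lengths, with and without a set shift of the low-ratio class. These were drawn independently from a single pool, without differences between chromosomes, so the check is no support for the length result. Python 3.11.15, numpy 2.4.6, scipy 1.17.1, pandas 2.3.3 and matplotlib 3.10.9 were used.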

Additional observations from a re-analysis of the deposited data

How the results depend on the processing

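The shorter length of low-ratio regions kept its sign and passed the unadjusted threshold (exact permutation test) in all 17 alternatives that kept middle-ratio or all higher regions as the comparison, from -159.25 bp against a narrower band of middle ratios to -80.4 bp without the shortest and longest 10% of regions. Leaving out each chromosome in turn gave -132 to -103 bp (exact permutation p = 0.00391 to 0.0117). Set against regions above 1.5 instead, it was -82.5 bp and did not pass, and against regions at 0 its sign turned, at 6.25 bp; the cause was not tested. The distal share and end distance passed in none of their alternatives (19 and 17), with p of at least 0.0742; the end distance turned to 0.174 percentage points at an upper ratio limit of 0.3. The neighbour gap passed only with regions at 0 counted as members (46.0 kb, exact permutation p = 0.0410, unadjusted, higher on 8 of 10 chromosomes), out of 17 alternatives with p up to 0.629; the cause was not tested. The share of low-ratio neighbours stayed within 1 SD, from -0.28 to 3.32 percentage points. A limit of 0.4 left 227 members and a limit of 0.3 left 122. No paired analysis was possible because MNase and input have 1 library each. The counts were not used, so the counting error of single ratios was not computed. How far that error enters into the length difference was not tested in any alternative.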
